A study of Rattus norvegicus with 4 samples.

Results

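Type I interferon response genes were examined in kidney allografts of Lew rats that received an apolipoprotein E (ApoE)-mimetic peptide or a control peptide. The set was chosen by gene symbol: 40 symbols were listed, 35 of them were annotated on the array, and the array held 14871 named genes in all. The 35 members were represented by 55 array features. The ratios of Oas2, Oas3, Parp12, Herc6 and Xaf1 were not analysed here, and of these genes all but Oas2 enter the promoter counts. Both groups were Lew recipients of an allogeneic kidney. The ApoE-mimetic peptide was given intravenously at 6 mg/kg each day from the day of transplantation, the other animals received the control peptide on that schedule, and grafts were taken on day 4. The labels name no donor strain, no dose of the control peptide and no age. Each of 4 two-colour arrays paired an ApoE-mimetic graft with a control graft, labelled with opposite dyes on replicates 1 and 3 (ApoE-mimetic in Cy5) and replicates 2 and 4 (ApoE-mimetic in Cy3). The replicates are biological per the series design, and whether samples were pooled is not stated. The title of the series concerns protection by ApoE against acute rejection, so the question for this gene set is whether its transcripts differed between the peptides.

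Type I interferons bind a cell surface receptor whose kinases activate transcription factors, among them STAT2. STAT2 and IRF9 are subunits of a complex that binds the interferon-stimulated response element, a pair of GAAA repeats in the promoters of its target genes. Many targets restrict viruses, by sensing foreign RNA, degrading it or trapping particles, and others restrain the signal. The programme is known to be induced in rejecting allografts.

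The promoters of the members are shown first because the element described above lies in promoters of targets of that complex. The set itself was chosen by gene symbol, not by the element. RefSeq windows of 300 bases on build GRCr8, from 250 bases before to 50 after the annotated start, were found by symbol for 31 of the 40 listed members. The core of the interferon-stimulated response element was searched on both strands as GAAA, any 2 bases and GAAA, and overlapping matches were kept. It was found in 64.5% of member windows (20 of 31) and in 3.92% of all 33469 windows of that length. Among genes with at least 1 array feature that was neither dim nor saturated, the shares were 59.1% of 22 member windows and 3.41% of 5629 windows. The second motif searched, TTCNNNGAA, which reads the same on both strands and is the core of the gamma-activated site, was found in 25.8% of member windows and in 8.87% of all windows. A match describes the letters in the window and is not evidence of binding.

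Members with a feature neither dim nor saturated were ranked by mean absolute ratio, taken over all their features, dim ones included. The 6 highest windows with the core are given from 5′ to 3′ on the strand of the gene, with the cores in capitals. They lie at chr16:18254918-18255217 (minus strand) for Bst2, chr3:67683919-67684218 (minus strand) for Ifih1, chr1:205799974-205800273 (minus strand) for Irf7, chr6:128355062-128355361 (plus strand) for Ifi27, chr12:41330216-41330515 (plus strand) for Oas1a and chr1:241527076-241527375 (plus strand) for Ifit3.
Bst2: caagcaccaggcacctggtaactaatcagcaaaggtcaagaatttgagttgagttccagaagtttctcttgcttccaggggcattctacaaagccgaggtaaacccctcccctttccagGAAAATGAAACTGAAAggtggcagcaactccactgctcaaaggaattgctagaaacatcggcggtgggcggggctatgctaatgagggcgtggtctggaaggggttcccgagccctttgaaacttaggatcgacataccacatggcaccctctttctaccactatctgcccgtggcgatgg
Ifih1: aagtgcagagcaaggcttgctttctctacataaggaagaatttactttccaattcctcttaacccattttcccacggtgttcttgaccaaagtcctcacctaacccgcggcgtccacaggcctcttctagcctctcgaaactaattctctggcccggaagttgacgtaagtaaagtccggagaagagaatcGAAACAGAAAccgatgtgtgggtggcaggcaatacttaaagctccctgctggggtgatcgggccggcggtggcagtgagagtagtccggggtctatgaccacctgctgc
Irf7: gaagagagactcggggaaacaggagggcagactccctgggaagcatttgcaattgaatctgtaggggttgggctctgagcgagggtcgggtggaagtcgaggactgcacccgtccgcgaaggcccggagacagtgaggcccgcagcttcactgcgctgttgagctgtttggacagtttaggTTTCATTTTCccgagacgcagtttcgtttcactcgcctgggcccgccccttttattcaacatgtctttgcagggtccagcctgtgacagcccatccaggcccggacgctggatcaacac
Ifi27: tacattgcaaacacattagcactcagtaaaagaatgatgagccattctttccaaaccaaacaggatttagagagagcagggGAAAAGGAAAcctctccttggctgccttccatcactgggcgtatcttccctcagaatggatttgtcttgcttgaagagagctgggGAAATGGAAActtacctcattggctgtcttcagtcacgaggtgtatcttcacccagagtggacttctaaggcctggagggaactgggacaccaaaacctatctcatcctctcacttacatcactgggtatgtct
Oas1a: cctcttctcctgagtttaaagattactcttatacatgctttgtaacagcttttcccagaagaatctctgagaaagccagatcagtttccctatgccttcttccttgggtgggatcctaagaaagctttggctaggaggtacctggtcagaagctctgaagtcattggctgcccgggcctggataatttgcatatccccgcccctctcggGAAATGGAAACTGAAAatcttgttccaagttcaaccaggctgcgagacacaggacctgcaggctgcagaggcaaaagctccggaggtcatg
Ifit3: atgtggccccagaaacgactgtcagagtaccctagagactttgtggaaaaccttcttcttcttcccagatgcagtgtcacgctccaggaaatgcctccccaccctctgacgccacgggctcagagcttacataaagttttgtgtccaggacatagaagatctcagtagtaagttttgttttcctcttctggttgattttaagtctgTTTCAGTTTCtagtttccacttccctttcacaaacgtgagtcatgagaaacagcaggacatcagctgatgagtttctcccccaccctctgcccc
In the Bst2 and Oas1a windows 2 cores overlapped, beginning 131 and 125 bases before the start of Bst2, and 41 and 35 bases before that of Oas1a. For contrast, Samhd1 and Mx1 had the largest mean absolute ratios among such members with no core in the window, which says only that these letters are absent from it. Their windows are chr3:166214361-166214660 (minus strand) and chr11:50294557-50294856 (minus strand).
Samhd1: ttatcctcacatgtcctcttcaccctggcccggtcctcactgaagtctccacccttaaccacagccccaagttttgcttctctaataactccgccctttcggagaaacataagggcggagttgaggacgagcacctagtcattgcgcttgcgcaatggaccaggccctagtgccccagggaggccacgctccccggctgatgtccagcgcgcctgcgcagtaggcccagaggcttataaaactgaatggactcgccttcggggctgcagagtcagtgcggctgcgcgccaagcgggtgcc
Mx1: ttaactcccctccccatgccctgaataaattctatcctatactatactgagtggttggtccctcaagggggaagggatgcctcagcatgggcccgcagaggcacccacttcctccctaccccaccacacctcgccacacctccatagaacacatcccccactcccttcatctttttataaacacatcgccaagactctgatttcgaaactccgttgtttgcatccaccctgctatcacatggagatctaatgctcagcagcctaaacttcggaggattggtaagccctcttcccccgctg

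Across the 20 windows there were 25 cores, 19 of them on the strand of the gene and 19 beginning within 100 bases before the start. In 8 of the 25, read on the strand of the core, the spacer between the repeats was CT. Members with the core and a feature neither dim nor saturated had a median absolute ratio, averaged over arrays, of 0.34 log2 units (13 genes, 0.11 to 1.02). The ratios used here include the dim features of these genes. For such members without the core the value was 0.22 (9 genes, 0.16 to 0.74), taken in the same way. The ranges overlapped almost throughout, and the difference was not tested.

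**Figure D1:**
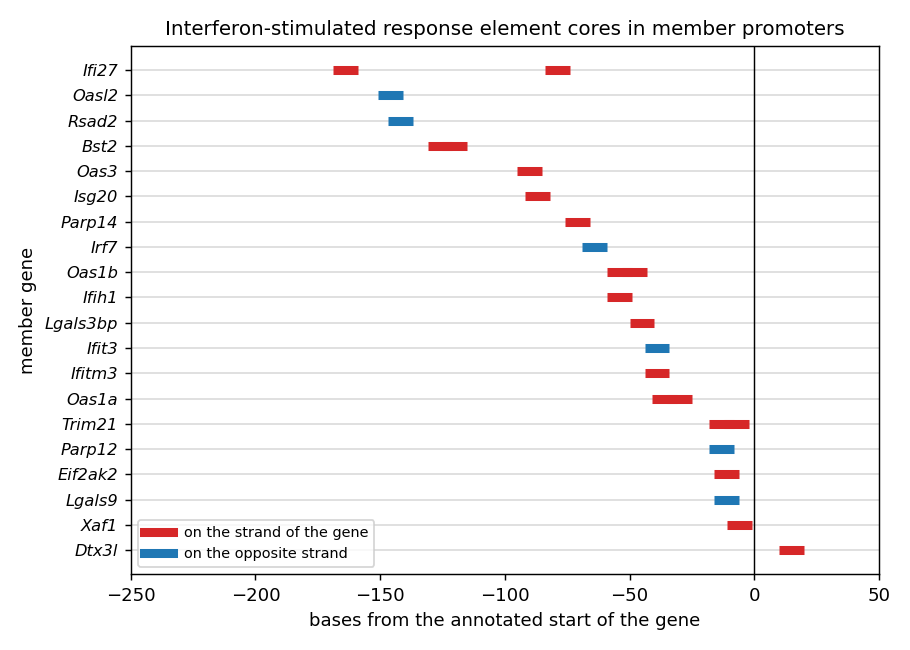
Position of the element core in the promoter windows of the 20 members that hold it, in bases from the annotated start of each gene. Red bars are cores on the strand of the gene and blue bars cores on the opposite strand, and 19 of 25 cores begin within 100 bases before the start.

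All expression values are log2 ratios between the channels of an array, so they give differences between paired grafts and no levels. They are printed with the sign deposited, minus the ratio of the array's median gene, and a gene's value is the mean over its features. Values with dim and saturated features left out are relative to the median gene among such values. A value of 1 is a 2-fold difference between the channels beyond that of the median gene. Median genes lay at -0.22, -0.04, -0.11 and -0.55 on replicates 1 to 4 before this subtraction. A feature was taken as dim where more than 2 features held exactly its value on any array. It was taken as saturated where it held a common value next to 0. Neither applied on any array to 37 of the 55 member features, and 30 of the 35 members (85.7%) had such a feature, against 45.3% of all named genes. Replicate 4 stood apart: the SD over genes was 1.09 there against 0.80 to 0.82 on the others, and its median ratio was -0.80 in the first 10 grid columns and 0.40 in the last 10. Over genes with dim and saturated features left out, its SD was 0.58 against 0.66 to 0.71. No intensities were used, so the labelled tissue could not be checked by levels. Of 10 proximal tubule markers, 8 had a feature neither dim nor saturated. The number of arrays limits the precision of every value.

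Which peptide is the numerator of each column is not stated, and the arrays did not settle it. The same dye orientation was labelled on replicates 1 and 3, but the ratios of this pair had a Pearson correlation of -0.657 over the 13363 features neither dim nor saturated and -0.238 over all features. Features are not independent replicates. Over the features neither dim nor saturated, replicates 2 and 4, also of 1 orientation, had -0.043. Pairs of opposite orientation had -0.426 (1 and 2), 0.393 (1 and 4), 0.423 (2 and 3) and -0.267 (3 and 4). As the numerator is not stated, differences between the peptides are given for 2 readings. Both give replicates 1 and 3 the same sign, so the correlation of that pair does not choose between them. Whether either reading holds is not settled. In the first, columns are Cy5 over Cy3, so a positive value favours the ApoE-mimetic graft on replicates 1 and 3 and the control graft on replicates 2 and 4. In the second, the authors had already turned every column to ApoE-mimetic over control. If the numerator is the other channel, all signs are the opposite, with p-values as given.

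No member differed between the peptides by the test. With limma across 14847 genes, 0 of 35 members and 0% of all genes had an adjusted p under 0.05, under the first reading and under the second. At an unadjusted p under 0.05 there were 0 members under either reading, against 3.39% of genes under the first and 3.06% under the second. A group of members, among them Isg15, Mx1, Oas1a, Ifit3 and Bst2, lay below the median gene on replicates 1, 2 and 4 and above it on replicate 3. Under neither reading does this course have 1 sign on all 4 arrays.

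Among the transcription factors, the subunits of the complex that binds the response element moved little. Stat2, a subunit of the complex that IRF9 guides to DNA, had values of -0.15, -0.29, -0.07 and -0.30 on replicates 1 to 4, and its 2 features differed by 0.02 to 0.16. Irf9, the DNA-binding subunit, had -0.21, 0.16, 0.04 and -0.48. Both stayed within 0.5 log2 units of the median gene on every array. Irf7, an interferon-induced factor that amplifies interferon production, had -0.23, -0.50, 0.64 and 1.05 over 3 features. Its 1 feature neither dim nor saturated gave -0.43, -0.19, 0.24 and -0.54, so the sign on replicate 4 depended on the dim features. Irf8, a myeloid lineage factor, had -0.23, -0.02, 0.12 and -0.54 over 3 features. Its 1 feature neither dim nor saturated gave 0.15, -0.02, -0.03 and -0.57, with the opposite sign on replicates 1 and 3.

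The RNA sensors did not follow a shared course. Ifih1, which encodes the long double-stranded RNA sensor MDA5, had 0.18, -0.38, 1.35 and -0.71, and it was the member with the highest positive value on replicate 3 among those with a feature neither dim nor saturated. Turned by the first reading it lay on the ApoE-mimetic side on all 4 arrays, as Dtx3l did, 2 of 35 members against 4.92% of all genes. With dim and saturated features left out, it was the 1 of 30 members to do so, against 4.12% of genes. Dhx58, a regulator of RNA sensing, had 0.02, -0.50, -1.25 and -0.58, and its 1 feature neither dim nor saturated gave 0.39, -0.66, -0.01 and -0.74. Zbp1, a sensor of left-handed nucleic acids that can start necroptosis, had 0.08, -1.53, -0.26 and -0.64, lowest on replicate 2. Eif2ak2, which encodes the kinase PKR, had -0.06, -0.11, 0.13 and 0.31. Adar, the enzyme that edits adenosine in double-stranded RNA, ran the other way with -0.20, 0.72, -0.11 and 0.40. It was the 1 member on the control side of all 4 arrays under the first reading, where 5.13% of all genes were, and also the 1 of 30 with dim and saturated features left out, against 4.38%. Its 2 features differed by 1.52 on replicate 2 and by 0.96 on replicate 4, so its values there are uncertain. On those arrays 1 of the 2 features had deposited ratios of -0.08 and -0.63, below the median genes at -0.04 and -0.55. The side of Adar on these arrays therefore rested on the other feature.

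Isg15, which encodes a ubiquitin-like modifier, had -0.80, -0.60, 0.55 and -0.70. Usp18, which removes ISG15 from proteins and restrains receptor signalling, had -0.75, -1.0, 0.38 and -1.09. Both genes were low on replicates 1, 2 and 4 and high on replicate 3, although the 1 feature of Usp18 neither dim nor saturated gave -0.36, -0.69, 0.02 and -0.85, at the median gene on replicate 3. The ubiquitin ligase genes differed from them. Trim25, which helps activate RNA sensing, had 0.02, 0.21, 0.10 and 0.38, all above the median gene. Trim21, a cytosolic antibody receptor, and Dtx3l, the partner of PARP9, had only dim features, with values between -0.66 and 1.84 and between -0.06 and 0.44.

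PARP genes stayed close to the median gene and above it on every array. Parp9 had 0.06, 0.12, 0.31 and 0.14. Parp14 had 0.11, 0.18, 0.44 and 0.01. With Trim25, they were the 3 of 35 members above the median gene on 4 of 4 arrays as deposited, where 5.89% of all genes were. The same 3 were above it on every array with dim and saturated features left out, against 5.02% of genes. The windows of Parp9, Dtx3l and Parp14 all lie on chromosome 11.

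The oligoadenylate synthetases make the messenger that activates RNase L. Oas1a had -0.66, -0.45, 0.37 and -0.32, in the course of Isg15. Oas1b, represented by a dim feature, had -1.32, -0.36, 1.40 and -0.42. Oasl2 stayed within 0.3 of the median gene with -0.04, -0.29, -0.05 and 0.05. Oasl, again from a dim feature, lay between -0.18 and -0.02 on replicates 1 to 3 and at 1.98 on replicate 4. Features of such paralogs can share transcripts, and the probe sequences were not used here, so Oas1a and Oas1b, Oasl and Oasl2, and Mx1 and Mx2 may not be separately measured.

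Among the dynamin-like GTPases, Mx1, whose protein blocks influenza-type viruses in the nucleus, had -0.75, -0.91, 0.48 and -0.69. Mx2 had -0.59, -1.03, 0.54 and 0.42 over 2 features, and its feature neither dim nor saturated gave -0.17, -0.66, 0.85 and -0.67. Both genes were then low on replicates 1, 2 and 4 and high on replicate 3. Ifit3, an RNA-binding adaptor protein, had -0.40, -0.62, 0.37 and -0.23. Ifit2, of the same family, had -0.18, 0.48, 1.09 and 0.10, and without its dim feature -0.10, 0.23, 0.75 and -0.86. It shared the high value on replicate 3 but not the low one on replicate 2.

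Bst2, which encodes the tetherin that holds budding virus at the cell surface, had the lowest values of all members on replicate 1. Its ratios were -1.71, -1.40, 0.40 and -0.59, and its 2 features agreed within 0.0061 to 0.195 on the 4 arrays. Rsad2, which encodes viperin, had 4 features, of which 3 were dim. The mean over all 4 was -0.17, -0.66, -0.09 and -0.07, whereas the 1 feature neither dim nor saturated gave -0.08, -0.93, 0.84 and -1.16. The membrane proteins of the IFITM family differed from Bst2. Ifitm1 had -0.01, -0.75, -0.97 and -0.52, and Ifitm3 had -0.62, -0.06, -0.09 and -0.19. Isg20, an exonuclease, lay between -0.22 and 0.21. Samhd1, which hydrolyses deoxynucleotides, had 0.11, 1.72, 0.88 and -0.24, and 0.43, 1.41, 0.05 and -0.80 without its dim feature. It was high on replicate 2, where most other members were low.

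The remaining members had no common course. Lgals3bp, a secreted galectin-binding glycoprotein, lay below the median gene on every array, at -0.19, -0.63, -0.26 and -0.27. With dim and saturated features left out, it had 0.013 on replicate 1, so its sign there depended on the centre. Lgals9, which encodes galectin-9, had -0.93, -1.15, 1.10 and -0.75 from a feature that was dim on 1 array at least. Sp100, a nuclear body protein, had 0.62, 0.23, -0.71 and 0.99, the reverse of the Isg15 course on every array. Ifi27 had 0.07, -1.02, -0.49 and -0.28, and Ifi35 lay between -0.47 and 0.01.

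**Figure D2:**
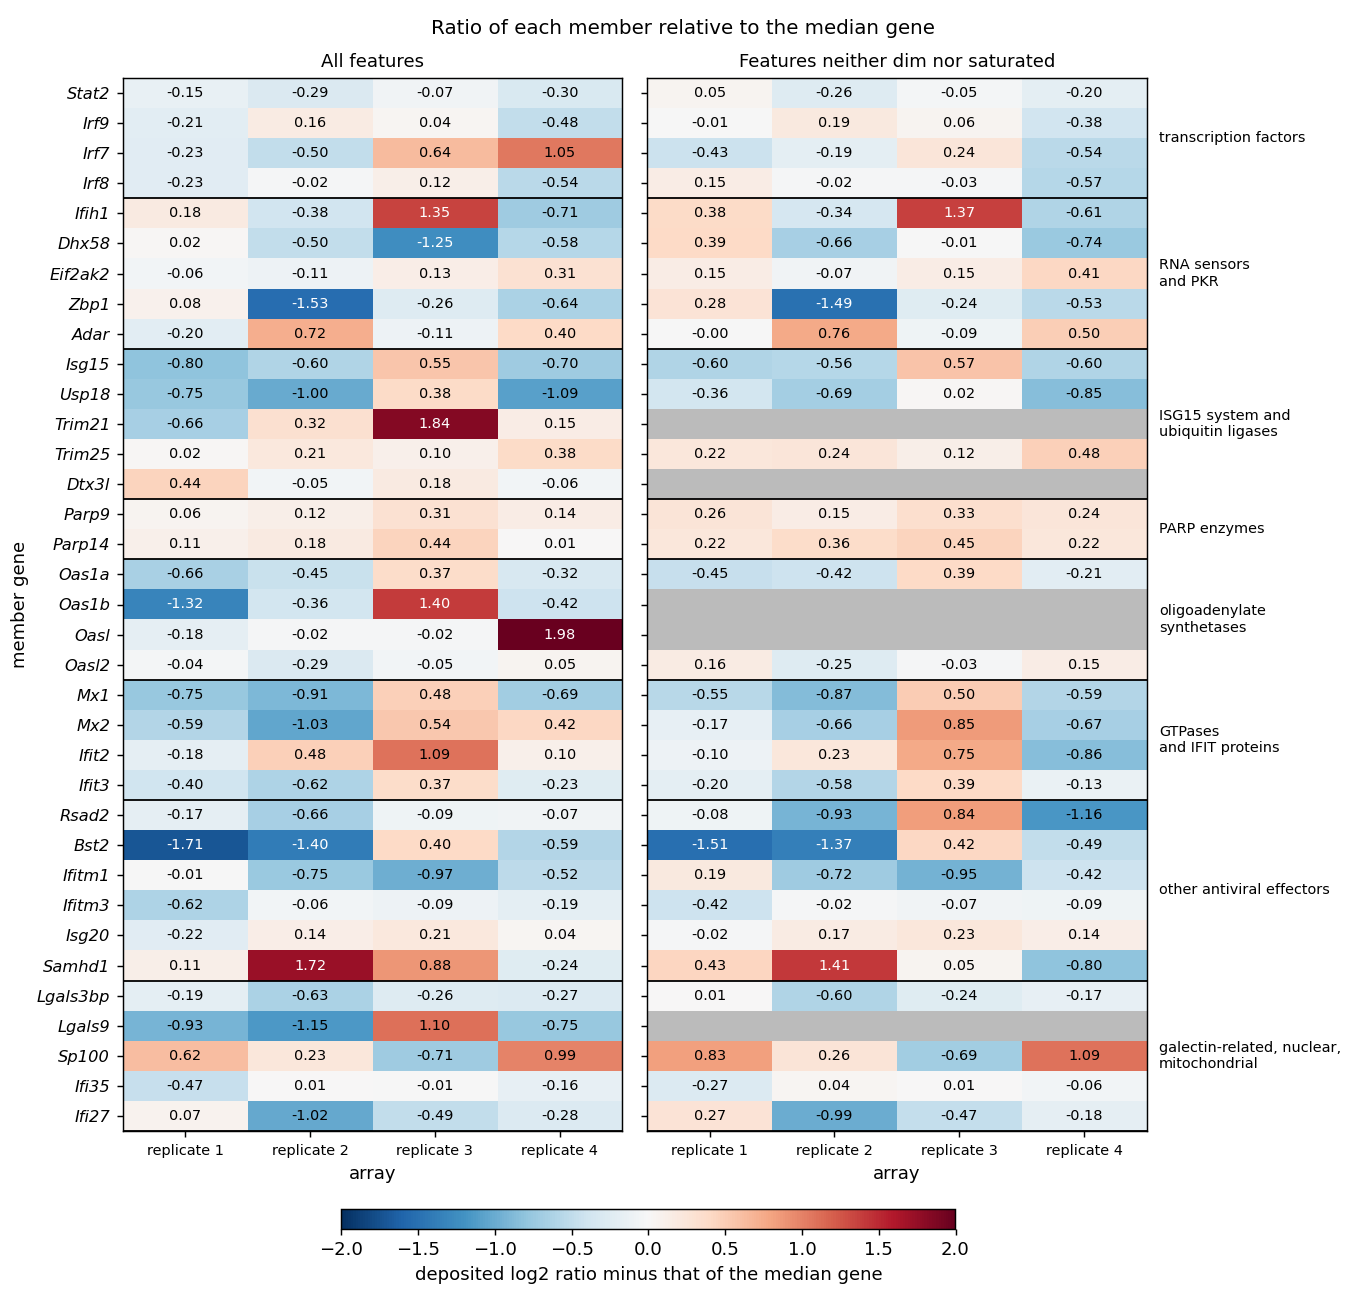
Deposited log2 ratio minus that of the median gene, for each of the 35 members (rows, grouped by role) on each of the 4 arrays (columns), with all features on the left and with features neither dim nor saturated, relative to the median gene among those, on the right. Blue is below and red above the median gene, and grey marks members with no such feature. Isg15, Usp18, Mx1, Oas1a, Ifit3 and Bst2 are blue on replicates 1, 2 and 4 and red on replicate 3 in the left panel.

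Counted over arrays, 9 of 35 members (25.7%) lay above the median gene on replicate 3 and below it on replicates 1, 2 and 4, against 6% of all genes. They were Bst2, Ifit3, Irf8, Isg15, Lgals9, Mx1, Oas1a, Oas1b and Usp18. With dim and saturated features left out, 9 of 30 (30%) had this pattern against 7.01% of genes, namely Bst2, Ifit3, Irf7, Isg15, Mx1, Mx2, Oas1a, Rsad2 and Usp18. The pattern was picked after the values were seen, so these shares describe it and carry no test. Another 7 of the 30 lay above the median gene on replicate 1 and below it on the other arrays, where 11.9% of genes did: Dhx58, Ifi27, Ifitm1, Irf8, Lgals3bp, Stat2 and Zbp1. Irf8 is among these 7 and, with all features, among the 9 above, with opposite signs on replicates 1 and 3. With all features, 3 of 35 members (8.57%) had the pattern of these 7, against 8.27% of genes. Members below the median gene on 4 of 4 arrays as deposited numbered 5 of 35 against 5.55% of genes. With dim and saturated features left out, only Ifitm3 among 30 was below on all 4, against 3.67%.

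On single arrays the members spread to both sides. Their median was -0.19 on replicate 1, with 25 of 35 below the median gene, and -0.29 on replicate 2, with 24 below. It was 0.18 on replicate 3, with 13 below, and -0.23 on replicate 4, with 22 below. With dim and saturated features left out, the medians of the 30 members were 0.005, -0.25, 0.09 and -0.30. On replicate 1 this put 15 below and 15 above, although Bst2, Isg15, Mx1 and Oas1a stayed low there. With all features kept and only the centre moved, to the median feature neither dim nor saturated, the members' median on replicate 1 was already -0.0085. The sign of the members' median on that array therefore depended on the centre.

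T cell and cytotoxic markers differed between the same channels by more than the members did on every array, by their medians. With dim and saturated features left out, the median of 11 T cell markers was 0.87, -1.61, -1.23 and -1.33, that of 8 natural killer and cytotoxic markers 1.15, -1.51, -1.40 and -1.16, and that of 11 monocyte and macrophage markers 0.66, -0.54, -1.05 and -0.07. That of 8 proximal tubule markers was -1.16, 1.69, 1.32 and -0.09. On replicates 1 and 3 Isg15, Mx1, Oas1a and Bst2 lay on the side opposite to the T cell markers, and on replicates 2 and 4 they lay on the same side. Relative to the proximal tubule markers, those 4 genes lay on the same side on replicates 1 and 3 and on the opposite side on replicate 2. On replicate 4 the 8 tubule markers were split, 4 below and 4 above. Isg15, Mx1, Oas1a and Bst2 were named for their course, so the sides given here follow from that pick. With dim and saturated features left out, 7 of 30 members (23.3%, against 11.9% of genes) had the sign of the T cell medians on every array. These were Dhx58, Ifi27, Ifitm1, Irf8, Lgals3bp, Stat2 and Zbp1. Some of their values lay near the centre, as for Stat2 at 0.05 on replicate 1 and Dhx58 at -0.008 on replicate 3. With all features kept, only Dhx58, Ifi27 and Zbp1 did so, 3 of 35 (8.57%) against 8.27% of genes. Of the 6 plasmacytoid dendritic cell markers that are no members, 2 had a feature neither dim nor saturated, with medians of 0.19, 0.21, -0.36 and 0.10. Neutrophil markers had medians of 1.10, 1.22, -1.95 and 1.85 over 2 genes, and endothelial markers -0.83, 0.61, 0.01 and -1.27 over 4. No B cell marker had such a feature. The part of cell composition in the members' ratios was not tested, and in these bulk samples fewer cells of a type cannot be told apart from less RNA per cell.

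**Figure D3:**
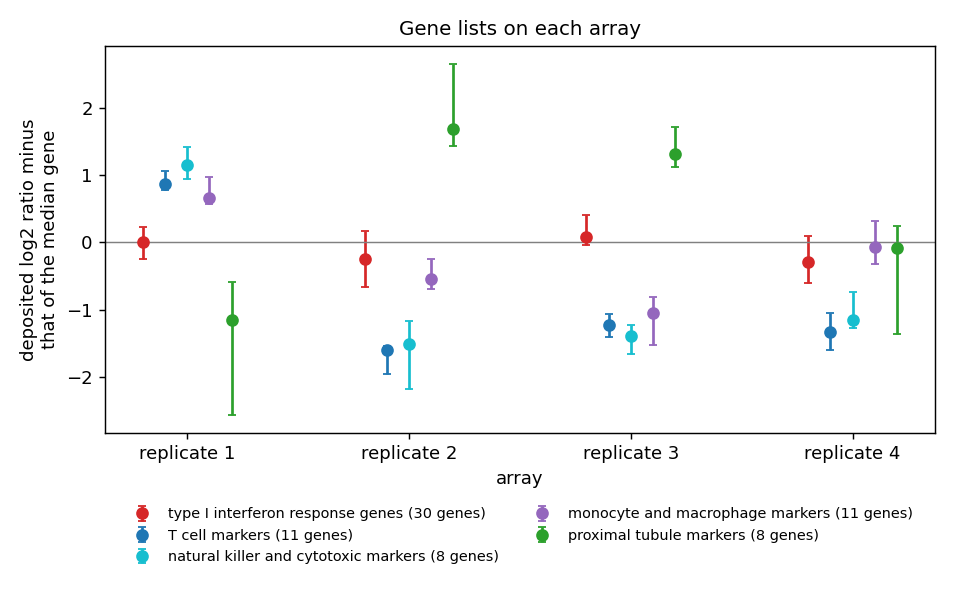
Median (points) and quartiles (bars) of the deposited log2 ratio minus that of the median gene, over features neither dim nor saturated, for 5 gene lists on each of the 4 arrays. The medians of the type I interferon response genes stay between -0.30 and 0.09, while those of T cell markers move from 0.87 to -1.61 and those of proximal tubule markers from -1.16 to 1.69.

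Between the peptides, the median difference of the members had opposite signs under the 2 readings. Under the first reading, 24 of 35 members favoured the ApoE-mimetic grafts (68.6%, against 47% of all genes), with a median of 0.09 log2 units against -0.02 over all genes. The members' median on an array, turned by this reading, was -0.19, 0.29, 0.18 and 0.23, or 0.13 ± 0.22 (SD, n = 4), positive on 3 of 4 arrays. Without dim and saturated features it was 0.005, 0.25, 0.09 and 0.30, or 0.16 ± 0.14 (SD, n = 4), positive on 4 of 4, and 22 of 30 members favoured the ApoE-mimetic grafts with a median of 0.14. With all features and without replicate 3 the median of the fitted differences was -0.02, so its sign rested on that array. Under the second reading, 14 of 35 favoured the ApoE-mimetic grafts (40%, against 48.3%), with a median of -0.17 against -0.02, and the array medians gave -0.13 ± 0.21 (SD, n = 4). The array medians without dim and saturated features gave -0.12 ± 0.19 (SD, n = 4) and 11 of 30 favoured them. No share over all genes stands beside the counts of 22 of 30 and 11 of 30, so these only describe the members.

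The 8 members with the smallest p under the first reading were of both signs, and none passed after adjustment. Ifih1 had a difference of 0.65 log2 units (SE 0.31, n = 4 arrays, limma unadjusted p = 0.0908, adjusted p = 0.9999). Zbp1 had 0.49 (SE 0.28, limma unadjusted p = 0.144), Usp18 0.43 (SE 0.30), Lgals9 0.52 (SE 0.41) and Mx1 0.33 (SE 0.31). Toward the control peptide lay Oasl at -0.54 (SE 0.40), Adar at -0.36 (SE 0.24) and Sp100 at -0.33 (SE 0.34). Several of these rested on 1 array. Without replicate 3, Ifih1 had 0.36, Usp18 0.15, Lgals9 0.01, Mx1 0.023 and Sp100 0.0069. Without replicate 4, Oasl had -0.039 and Sp100 -0.14. Without replicate 1, Usp18 had 0.72, Lgals9 1.03, Mx1 0.64 and Sp100 -0.66. Without replicate 2, Zbp1 had 0.27, Oasl -1.04 and Sp100 -0.52. Under the second reading 7 of these 8 changed sign: Zbp1 had -0.59, Usp18 -0.62, Lgals9 -0.43, Mx1 -0.47, Oasl 0.44, Adar 0.20 and Sp100 0.28. Ifih1 kept its sign, at 0.11 (SE 0.31). Over all 35 members the differences ran from -0.54 for Oasl to 0.65 for Ifih1 under the first reading, and from -0.83 for Bst2 (SE 0.44) to 0.62 for Samhd1 (SE 0.42) under the second.

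Leaving out dim and saturated features did not bring a member past the threshold. Of the 30 members left, 0 had an adjusted p under 0.05 with limma, as did 0% of the 6731 genes. At an unadjusted p under 0.05 there were 3 under the first reading, where 1.41% of genes were. These were Rsad2 at 0.71 (SE 0.21), Ifih1 at 0.68 (SE 0.22) and Dhx58 at 0.45 (SE 0.15). With all features kept, the same genes had 0.12 (SE 0.25), 0.65 (SE 0.31) and -0.04 (SE 0.31). Under the second reading, with dim and saturated features left out, they had -0.33, 0.20 and -0.25. Usp18 alone had an unadjusted p under 0.05 under that reading, at -0.47 (SE 0.15), where 2.29% of genes did. The SEs rest on the spread between graft pairs of the same dye orientation, which eBayes moderates, and any difference between the orientations goes into the dye term.

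**Figure D4:**
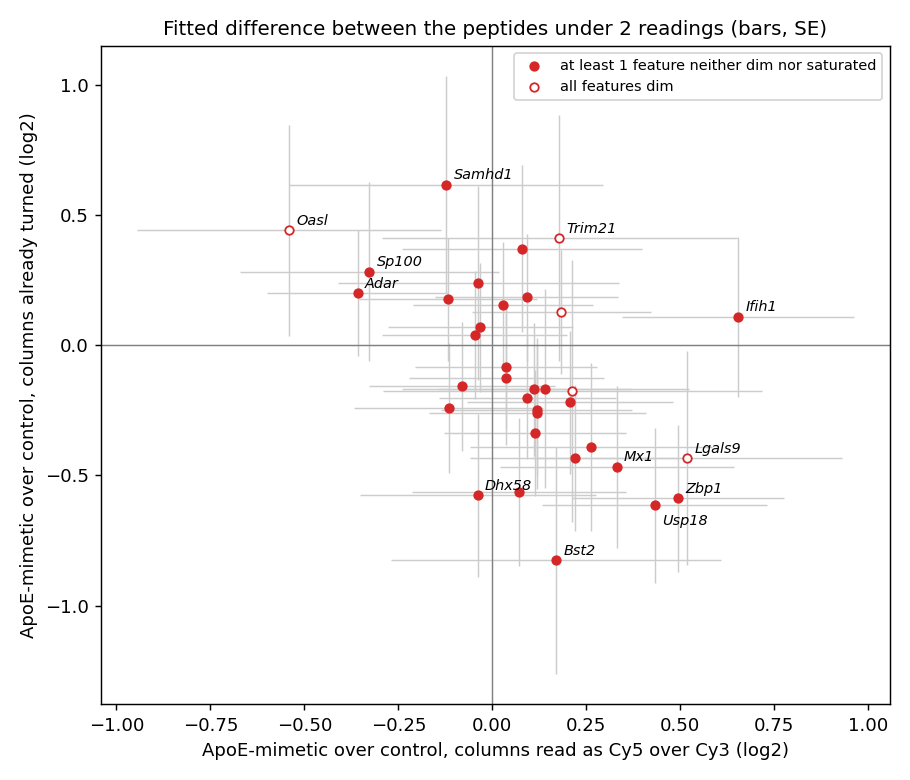
Fitted difference between the peptides in log2 units for the 35 members, with columns read as Cy5 over Cy3 (horizontal axis) and under the second reading (vertical axis). Points are limma coefficients with SE bars over 4 arrays, open where all features are dim. In the lower right, positive under the first reading and negative under the second, lie 18 of 35 members, and Ifih1 lies farthest right at 0.65. No share over all genes stands beside this count.

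The genes upstream of the members did not pass the test either. Of 9 interferon genes and receptors measured, 0 had an adjusted p under 0.05 with limma, 1 had an unadjusted p under 0.05, and 5 were positive under the first reading. Over all genes these shares were 0%, 3.39% and 47%, which also stand beside the counts of the lists that follow. Ifnb1, which encodes interferon beta, had ratios of -0.05, -1.38, -0.05 and -2.36 from a dim or saturated feature, and a difference of 0.91 (SE 0.28, limma unadjusted p = 0.0265). Under the second reading it had -0.96, so its sign is not settled. Ifng, the T and natural killer cell interferon, had 0.06, -0.68, 0.90 and -1.18, or 0.71 (SE 0.28) under the first reading and -0.23 under the second. Ifnar1, a chain of the type I receptor, had 0.82, -0.22, -0.57 and 0.88.

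In receptor-proximal signalling, 0 of 9 genes that are no members passed, 0 had an unadjusted p under 0.05, and 6 were positive under the first reading. The 2 with the smallest p encode inhibitors of STAT proteins: Pias1 had -0.42 (SE 0.24) and Pias4 -0.39 (SE 0.28), turning to 0.06 and 0.17 under the second reading. Pias4 had -0.17 with dim and saturated features left out, and -0.098 with the median of its features. Among 12 nucleic acid sensing genes, 0 passed, 0 had an unadjusted p under 0.05, and 8 were positive. With dim and saturated features left out, 1 gene of each of these lists had an unadjusted p under 0.05, where 1.41% of genes did. They were Ifng (of 4, 0.73, SE 0.19), Pias1 (of 8, -0.40, SE 0.14) and Tbk1 (of 8, 0.44, SE 0.15). None passed after adjustment, and under the second reading they had -0.14, 0.15 and -0.42. Irf3, the factor that starts interferon transcription, had -0.61 (SE 0.30), or -0.27 with dim and saturated features left out, and Aim2, a sensor of cytosolic DNA, had 0.43 (SE 0.29). Under the second reading these were 0.27 and -0.36.

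Genes that respond mainly to interferon gamma were set beside the members. Of 18, 0 passed and 1 (Ido1) had an unadjusted p under 0.05 with limma, against 3.39% of all genes. Under the first reading 15 were positive (83.3%, against 47% of all genes), with a median of 0.17. Under the second 5 were positive (27.8%, against 48.3%), with -0.12. With dim and saturated features left out, the medians of this list were 0.26, -0.66, 0.12 and -0.22 on replicates 1 to 4. Those of the members were 0.005, -0.25, 0.09 and -0.30. Ido1, whose product breaks down tryptophan, had the lowest ratio of this list, -3.79 on replicate 2, and -0.16, -0.37 and -1.72 on replicates 1, 3 and 4. Its difference was 1.25 (SE 0.41) under the first reading and -1.51 under the second. Ubd, a ubiquitin-like modifier, had 0.22, -0.69, 0.11 and -1.62. Its 1 feature held the shared value next to 0 on replicates 1 and 3 and counted as saturated there, so these 2 values only restate the centring and its difference is not a measured size. Psmb9 and Gbp2 both had 0.22, 0.04 and 0.11 on replicates 1 to 3, which likewise restate the centring. Ubd and Psmb9 count among the 15 positive genes, and Psmb9 and Gbp2 among the 5. Whether the members and this list differ was not tested. When 1 array was left out, under the first reading, Pias4 ranged from -0.60 to -0.18, Irf3 from -0.86 to -0.35, Aim2 from 0.22 to 0.64 and Ido1 from 0.73 to 1.76.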

How the data were processed

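RNA of ApoE-mimetic and control grafts was hybridised in pairs to 4 two-colour Agilent arrays, per the labels. The deposited values were taken as log2 ratios of the channels. Log base, direction, scanner, background correction and normalization were not given in the sources used here. A base of 2 was read from the values (largest size 11.3) and is not settled. Features were named through GEO's platform annotation: 25353 bore 1 symbol, 48 several and 19819 none, and 25306 gene numbers were found in RefSeq (GRCr8), which updated 1 symbol. Features of a gene were averaged, and each array was centred on its median gene.

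Ratios were fitted with limma 3.58.1 in R 4.3.3 (lmFit, eBayes), with treatment and dye terms, over 14847 genes with values on all arrays. Tests were two-sided, with Benjamini-Hochberg adjustment over all genes and a threshold of 0.05. The fit was tested on simulated data first. Alternatives concerned direction, dye term, centring, scaling, dim features, the average over features, robust eBayes, grid position and single arrays.

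Members and lists were chosen with earlier results of these data known. Statistics are given for the 8 members with the smallest p and the 2 non-member genes with the smallest p of each of 4 pathway lists, and ratios for members with a feature neither dim nor saturated. Ifnar1, other members' values and the counted patterns are named outside that rule, after values were seen.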

Additional observations from a re-analysis of the deposited data

Results flagged for a closer look

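Values here are turned by the first reading, and 44 sets of 4 arrays were examined: 35 members, their median and 8 further named genes. In 4 of them 1 array lay apart from the other three by more than Dixon's critical value for 4 samples, where chance gives about 1 in 20. Replicate 1 stood apart for Isg15, at -0.80, and for Oas1a, at -0.66. Replicate 4 stood apart for Oasl, at -1.98, from a dim feature. Replicate 2 stood apart for Oasl2, at 0.29.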

How the results depend on the processing

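The count of 0 genes and 0 members past the threshold was the same under every alternative run, with limma. Without 1 array each, the members' median difference ranged from -0.02 to 0.13, around 0.09 with all arrays. With columns taken as already turned it was -0.17, and these genes changed sign: Zbp1 -0.59, Adar 0.20, Usp18 -0.62, Oasl 0.44, Lgals9 -0.43, Mx1 -0.47, Sp100 0.28, Ifnb1 -0.96, Ifng -0.23, Pias1 0.064, Pias4 0.17, Irf3 0.27, Aim2 -0.36, Ido1 -1.51 and Ubd -0.50. That reading weights replicates 2 and 4 with the opposite sign, by construction. Sp100 ranged from -0.66 to 0.0069 when 1 array was left out, turning without replicate 3, and the cause was not tested. Of the values of 16 named genes under alternatives, 188 kept their sign and 16 did not. Leaving out the dye term and robust eBayes return the same differences by construction, so the agreement they add to the 188 was fixed in advance. Centring by grid column was chosen after seeing the data. It left the members' medians at -0.18, -0.33, 0.17 and -0.12 and raised the members below the median gene on replicate 4 from 22 to 28. Without centring, the members' median on replicate 4 was -0.78. All fits are paired by array, since each ratio sets an ApoE-mimetic graft against a control graft, and no further replicate block could be added. Signal over background could not be computed without intensities, so the dim features are an inference from shared values.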
